A study of Mus musculus with 6 samples.

Results

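The hormone receptors of the stress axis and 8 of their best known response genes were followed across the 6 prefrontal cortex (PFC) libraries of this study: Nr3c1, Nr3c2, Tsc22d3, Fkbp5, Sgk1, Plin4, Cdkn1a, Ddit4, Pdk4 and Zbtb16. The 10 genes were taken by symbol from the 54429 gene names of the count tables, and all 10 passed the filter on low counts. They were chosen by their known role with earlier results of these libraries in view, that is, with the differences between the same 3 groups known, so their values are a description and carry no test. Plin4 and Pdk4 also stand in the study's own lists of reversed genes, which were drawn from these samples.

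Mice of 3 groups were compared, with biological duplicates in each. The first were wild-type (WT) mice of a C57BL/6 x C3H background given vehicle, the second (Tau) were PS19 mice carrying P301S tau and given vehicle, and the third (Tau+UNC0642) were PS19 mice given UNC0642. All were 6 months old by the series' own text, and the tissue was a total lysate of the PFC. The PS19 transgene encodes a human tau isoform with the P301S mutation under the prion protein promoter, in a B6C3H/F1 background, and the endogenous mouse tau gene remains in all groups. UNC0642 is a selective inhibitor of EHMT1 and EHMT2, the enzymes that write the repressive H3K9me2 mark. It was injected intraperitoneally once daily on consecutive days, the vehicle was saline with a little DMSO, and tissue was taken the day after the last injection. No WT mice given UNC0642 are among these libraries. Treated and untreated mice can therefore be compared among Tau mice alone, where treatment coincides with a split in sex pattern given below.

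Corticosterone, the glucocorticoid of mice, binds 2 intracellular receptors. The mineralocorticoid receptor (Nr3c2) has the higher affinity and is largely occupied at resting hormone levels, whereas the glucocorticoid receptor (Nr3c1) fills with stress and with the daily hormone peak. The unbound glucocorticoid receptor sits in the cytoplasm with HSP90 and co-chaperones. After binding it enters the nucleus and acts at response elements made of a pair of inverted half-sites. Among its targets are genes that restrain it, such as Fkbp5, and EHMT1 and EHMT2 are known to serve as its coregulators at some genes. In bulk tissue, fewer cells of a type and less RNA per cell cannot be told apart.

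The libraries held 17005664 to 28972176 counts. Normalized expression is given in CPM, that is, counts scaled to library size, in which 3 counts were worth 0.107 to 0.178 CPM. A gene was called at the limits the study used, 1.2-fold or more with p under 0.05 before adjustment, here in edgeR's quasi-likelihood test over 20409 genes. Neuron markers were high everywhere, with a mean log2 CPM of 8.76 to 8.88. The choroid plexus genes tested were low, with a summed 3.44 to 6.79 CPM. Prnp, whose promoter drives the transgene, was looked at as a check of the labels and chosen outside the rule for named genes. The library labelled WT replicate 1 had 1652 CPM of it, WT replicate 2 had 873 CPM, and the 4 transgenic libraries had 1470 to 1694 CPM. Mapt, the mouse tau gene, was at 576 CPM in WT replicate 1, 449 CPM in WT replicate 2 and 571 to 614 CPM in the transgenic libraries. The library labelled WT replicate 1 thus stood with the transgenic libraries, and the counts of called genes are also given without it. Over all genes, 759 were called higher and 1244 lower in Tau against WT, or 937 and 993 without that library, and 770 and 1162 in Tau+UNC0642 against WT, or 912 and 1017. Xist was at 317, 191 and 235 CPM in WT replicate 2 and Tau replicates 1 and 2, against 0.118 to 0.197 CPM in the other 3 libraries. Ddx3y, on the Y chromosome, had the opposite pattern, so both Tau libraries had the female pattern, both Tau+UNC0642 libraries the male one, and the 2 WT libraries one each.

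To show what the receptor can read near these genes, the 250 bases before each RefSeq transcript start (GRCm38.p6) were searched on both strands. The RefSeq table held 27025 genes, among them 7 of the 8 response genes and Nr3c2. The consensus element, the palindrome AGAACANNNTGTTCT, was found before 3 of all 27025 genes (0.0111%), and Sgk1 was one of them. It lies 189 bases before an internal start of Sgk1, in chr10:21993640-21993889 on the plus strand, in no annotated exon. The window is printed whole because it is the only one of a member with the palindrome, and capitals mark the palindrome and, at its 5′ end, an E-box (CACGTG) that overlaps a reversed half-site.
Sgk1 upstream window: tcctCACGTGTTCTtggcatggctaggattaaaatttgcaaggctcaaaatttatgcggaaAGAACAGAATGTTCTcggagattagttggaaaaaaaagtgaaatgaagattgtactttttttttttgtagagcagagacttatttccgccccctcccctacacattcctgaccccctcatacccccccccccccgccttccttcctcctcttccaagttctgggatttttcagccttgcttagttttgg

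A looser form of the element, GNACANNNTGTNC, was found before 119 of all genes (0.440%). Of 30 other glucocorticoid-responsive genes with an entry, 3 had it, Mt1, Fam107a and Txnip, and these are shown with 8 bases on each side so that they can be set beside Sgk1. They lie at chr8:94178987-94179015 (plus), chr14:8309877-8309905 (minus) and chr3:96557777-96557805 (plus), and Sgk1's is at chr10:21993694-21993722. Capitals mark the match.
Sgk1: tgcggaaaGAACAGAATGTTCtcggagat
Mt1: cactatagGGACATGATGTTCcacacgtc
Fam107a: ggtggcttGGACATGGTGTTCtgagtctc
Txnip: cgctaggaGCACACCGTGTCCacgcgccc

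The single half-site AGAACA was before 4912 genes (18.2%), and before Tsc22d3 and Sgk1 among the 7 response genes with an entry. The E-box CACGTG, which the clock proteins and other bHLH factors read, was before 1854 genes (6.86%), and before Fkbp5 and Sgk1 of the 7. These single motifs are shown for Tsc22d3 at chrX:140600694-140600715 (half-site, reversed) and for Fkbp5 at chr17:28486305-28486326 (E-box), both on the minus strand.
Tsc22d3: attcgacaTGTTCTaagttctg
Fkbp5: gggccagaCACGTGggcagcgg
The windows before Plin4, Cdkn1a, Ddit4, Pdk4 and Nr3c2 held none of the 4 motifs. A match is a run of letters and not a bound site, and many elements of these genes are known to lie far from their starts, outside such windows.

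The receptor genes themselves differed little between the groups. Nr3c1 was at 204 and 222 CPM in the WT libraries, 221 and 228 CPM in the Tau libraries and 246 and 244 CPM in the Tau+UNC0642 libraries. Its Tau libraries lay within or just above the WT range, and its Tau+UNC0642 libraries lay above the other 4. The log2 fold change was 0.07 in Tau against WT (95% confidence interval -0.09 to 0.24), 0.13 in Tau+UNC0642 against Tau (-0.04 to 0.29) and 0.20 in Tau+UNC0642 against WT (0.04 to 0.36). The last was below the 1.2-fold limit, and Nr3c1 was called in no comparison.

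Nr3c2 was at 59.3 and 59.5 CPM in WT, 63.4 and 59.1 CPM in Tau and 57.6 and 69.8 CPM in Tau+UNC0642 mice. Its groups overlapped in every comparison, the log2 fold changes were 0.05, 0.06 and 0.10, and the intervals were -0.18 to 0.28 in Tau against WT, -0.17 to 0.29 in Tau+UNC0642 against Tau and -0.13 to 0.33 in Tau+UNC0642 against WT. Per exon length, in RPKM, which divides CPM by the exon length in kilobases, Nr3c1 stood at 27.8, 29.2 and 31.9 RPKM in the 3 groups and Nr3c2 at 9.18, 9.46 and 9.84 RPKM.

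Tau against WT compares the genotypes as labelled, and in it the response genes were higher in the Tau libraries. Both Tau libraries had the female Xist pattern and one WT library the male one, so genotype is partly mixed with that pattern here, beside the doubt about WT replicate 1. In Tau against WT, 7 of the 8 were called higher and none lower, where 3.72% of all genes were called higher and 6.10% lower. The median log2 fold change of the 8 was 0.70, against -0.00011 over all genes tested. The libraries of 7 of the 10 genes did not overlap and were higher in Tau mice (all response genes but Cdkn1a), where the same held for 21.9% of all genes. In Tau+UNC0642 against WT 7 response genes were again called higher and none lower, where 3.77% of all genes were called higher and 5.69% lower, and 9 of the 10 genes did not overlap and were higher, against 22.1% of all genes. The 2 comparisons share the WT libraries.

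**Figure D1:**
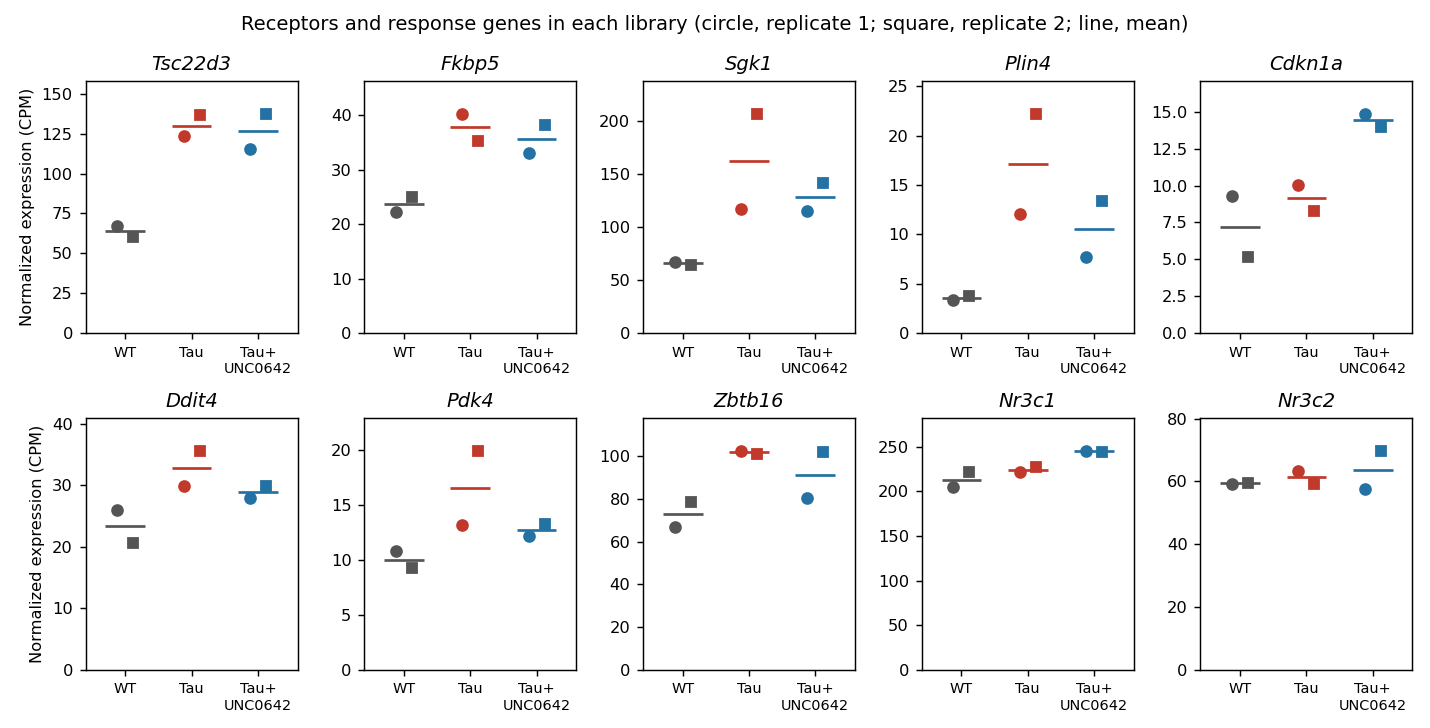
Normalized expression (CPM, linear axes from 0) of the 2 receptors and 8 response genes in each of the 6 libraries, with circles for replicate 1, squares for replicate 2 and lines for group means. The response genes other than Cdkn1a have both Tau libraries above both WT libraries, whereas Nr3c1 and Nr3c2 stay within 1.202-fold and 1.211-fold from lowest to highest library.

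Tau+UNC0642 against Tau compares treated with untreated Tau mice. It coincides with the split in Xist, so inhibitor and sex pattern cannot be told apart in it. Of the 8 response genes, 1 was called higher (Cdkn1a) and 1 lower (Plin4), where 3.73% of all genes were called higher and 3.95% lower. The 7 besides Cdkn1a all lay below 0, and the median of the 8 was -0.17, against -0.0023 over all genes. The calls changed with either Tau library left out. Without Tau replicate 1, 3 were called lower (Plin4, Pdk4 and Sgk1), where 3.38% of all genes were, and without Tau replicate 2 none was called. The same 3 were called lower with no filter on low counts. Of the 10 genes, Cdkn1a and Nr3c1 did not overlap and were higher, against 20.4% of all genes, and none did not overlap and was lower, against 20.9%. With Benjamini-Hochberg adjustment of edgeR's test, 0.157% of all genes were under 0.05 in Tau against WT. The same held for 0.216% in Tau+UNC0642 against WT and for 0.0196% in Tau+UNC0642 against Tau. The 10 genes were chosen with these differences known, so they are not counted at that limit.

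Tsc22d3 encodes GILZ, a leucine zipper protein that carries out much of the anti-inflammatory action of glucocorticoids. It was at 67.5 and 60.5 CPM in WT, 124 and 137 CPM in Tau and 116 and 137 CPM in Tau+UNC0642 mice. All 4 Tau libraries, treated or not, lay well above both WT libraries and overlapped each other. The log2 fold change was 1.02 (standard error 0.10) in Tau against WT, 0.98 (0.10) in Tau+UNC0642 against WT and -0.04 (0.10) in Tau+UNC0642 against Tau, with an interval of -0.27 to 0.19 for the last.

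Fkbp5 encodes FKBP51, a co-chaperone that lowers the receptor's affinity for its hormone and so closes a short feedback loop. It was at 22.3 and 25.0 CPM in WT, 40.3 and 35.3 CPM in Tau and 33.2 and 38.2 CPM in Tau+UNC0642 mice. Both transgenic groups again lay above WT and overlapped each other. Its log2 fold changes were 0.68 (standard error 0.12), 0.59 (0.12) and -0.08 (0.12), the last with an interval of -0.35 to 0.18.

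Sgk1 encodes a kinase that regulates ion channels and transporters, and it is induced through both receptors. It was at 67.2 and 64.5 CPM in WT, 117 and 207 CPM in Tau and 115 and 142 CPM in Tau+UNC0642 mice. Tau replicate 2 stood far above the other libraries, and the remaining 3 transgenic libraries still lay above both WT libraries. The log2 fold change in Tau against WT was 1.30 (standard error 0.21), or 0.84 without Tau replicate 2. In Tau+UNC0642 against Tau it was -0.33 (0.21), not called, and it was 0.13 without Tau replicate 2 but -0.69, and called lower, without Tau replicate 1. It was also called lower there with no filter on low counts. In Tau+UNC0642 against WT it was 0.96 (0.21).

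Plin4 encodes a perilipin, a coat protein of lipid droplets, and had the widest range of the 10 genes. It was at 3.31 and 3.71 CPM in WT, 12.05 and 22.2 CPM in Tau and 7.70 and 13.4 CPM in Tau+UNC0642 mice. WT libraries were lowest, Tau replicate 2 was highest, and the 2 transgenic groups overlapped. The log2 fold change was 2.27 (standard error 0.32) in Tau against WT, -0.67 (0.30) in Tau+UNC0642 against Tau and 1.60 (0.33) in Tau+UNC0642 against WT. Plin4 was the one member called higher in Tau and lower after UNC0642, as 0.857% of all genes were, in 2 comparisons that share the Tau libraries. Without Tau replicate 2 its change after UNC0642 was -0.19. That call was also lost without either WT library and without Tau+UNC0642 replicate 1.

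Pdk4 encodes a kinase that shuts off pyruvate dehydrogenase and spares glucose during fasting. It was at 10.8 and 9.26 CPM in WT, 13.1 and 19.9 CPM in Tau and 12.2 and 13.3 CPM in Tau+UNC0642 mice. Tau replicate 2 was again the highest library, and the other transgenic libraries lay close together just above WT. Its log2 fold change in Tau against WT was 0.71 (standard error 0.19), or 0.39 and no longer called without Tau replicate 2. In Tau+UNC0642 against Tau it was -0.36 (0.19), not called. It was called lower there without Tau replicate 1, at -0.64, and with no filter on low counts, whereas without Tau replicate 2 it was -0.045. Against WT it was 0.35 (0.20) in Tau+UNC0642 mice, not called, although it was called without either Tau library and with no filter.

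Zbtb16 encodes PLZF, a zinc finger transcriptional repressor. It was at 66.9 and 78.6 CPM in WT, 103 and 101 CPM in Tau and 80.2 and 102 CPM in Tau+UNC0642 mice. The Tau+UNC0642 libraries were split, one beside the Tau libraries and the other close to WT replicate 2. Log2 fold changes were 0.49 (standard error 0.12), 0.33 (0.12) against WT after treatment and -0.16 (0.12) against Tau. The call in Tau+UNC0642 against WT was lost without Tau+UNC0642 replicate 2 (0.14) and without the library labelled WT replicate 1. Without Tau+UNC0642 replicate 2 Zbtb16 was called lower against Tau, at -0.35, and without Tau+UNC0642 replicate 1 that difference was 0.0012.

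Ddit4 encodes REDD1, an inhibitor of mTORC1 that is also induced by hypoxia, DNA damage and the integrated stress response. It was at 25.9 and 20.7 CPM in WT, 29.9 and 35.7 CPM in Tau and 27.9 and 29.9 CPM in Tau+UNC0642 mice. Transgenic libraries all lay above WT, by 1.40-fold on average in Tau and 1.24-fold in Tau+UNC0642 mice. The log2 fold changes were 0.49 (standard error 0.14), 0.31 (0.14) and, after UNC0642 in Tau mice, -0.18 (0.14). Against WT the call in treated mice was lost without WT replicate 2 (0.16) and without either Tau+UNC0642 library. It was also lost when scaled by library size alone, with at least 10 counts in every library and with a replicate block. The DESeq2 Wald test and the fit with a term for the Xist pattern did not call it either.

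Cdkn1a encodes the cell cycle inhibitor p21, a target of p53 as well as of the glucocorticoid receptor, and was the response gene called higher after UNC0642. It was at 9.26 and 5.16 CPM in WT, 10.05 and 8.30 CPM in Tau and 14.9 and 14.0 CPM in Tau+UNC0642 mice. The WT and Tau libraries overlapped, and both Tau+UNC0642 libraries were the highest. The log2 fold change was 0.35 (standard error 0.24) in Tau against WT, 0.64 (0.24) in Tau+UNC0642 against Tau and 1.00 (0.24) in Tau+UNC0642 against WT. The call after UNC0642 was lost without Tau replicate 2 and without either Tau+UNC0642 library, and without the library labelled WT replicate 1 it was also called in Tau against WT, at 0.84.

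**Figure D2:**
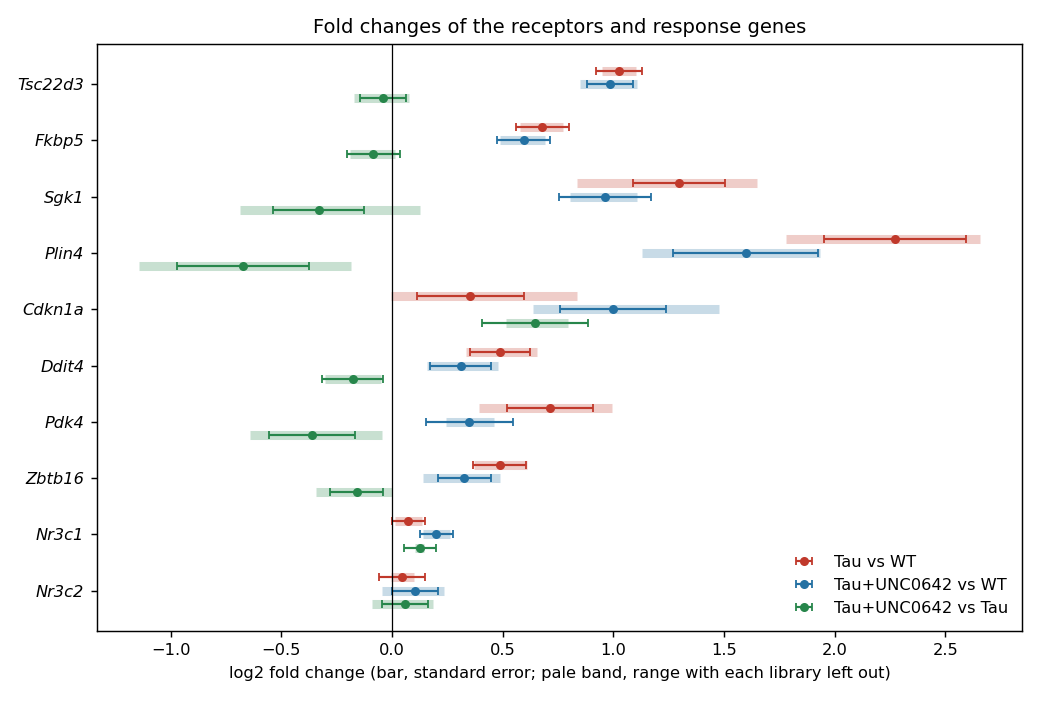
Log2 fold changes (points) of the 10 genes in the 3 comparisons, with bars for the standard error and pale bands for the range when each library is left out in turn. In Tau against WT (red) 7 response genes lie from 0.49 to 2.27 with bands above 0, whereas in Tau+UNC0642 against Tau (green) the bands of Tsc22d3, Fkbp5, Sgk1 and Zbtb16 cross 0.

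The comparison of Tau+UNC0642 with Tau coincides with the split in Xist, so inhibitor and sex pattern cannot be told apart in it. Within one pattern, the mean log2 CPM of the 2 Tau libraries minus that of WT replicate 2 was 1.10 for Tsc22d3, 0.60 for Fkbp5, 1.27 for Sgk1, 2.14 for Plin4, 0.82 for Cdkn1a, 0.66 for Ddit4, 0.80 for Pdk4 and 0.37 for Zbtb16. Within the other, the 2 Tau+UNC0642 libraries minus the library labelled WT replicate 1 gave 0.90, 0.67, 0.93, 1.62, 0.64, 0.15, 0.24 and 0.44 in the same order. All 8 genes were higher in the transgenic libraries within both patterns, but each pattern holds a single library labelled WT. In the second pattern that library, WT replicate 1, is the one that stood with the transgenic libraries on Prnp and Mapt. On the response genes it stood with WT replicate 2 instead. Their mean log2 CPM, centred over the 6 libraries, was -0.49 and -0.62 in WT replicates 1 and 2. In the transgenic libraries it was 0.08 to 0.49. The response genes and Prnp thus grouped this library differently, and whether the former follow genotype was not tested. For the receptors the differences within the 2 patterns were 0.02 and 0.26 for Nr3c1 and 0.04 and 0.10 for Nr3c2.

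Cdkn1a also had the widest gap of the 10 genes between the WT libraries, -0.85 on the log2 scale (WT replicate 2 minus the library labelled WT replicate 1). In a fit with a term for the Xist pattern all 8 response genes were called higher in Tau against WT, where 4.63% of all genes were. The difference between the WT libraries alone sets that term, so Tau is in effect compared with WT replicate 2 once more. The change after UNC0642 likewise takes in the gap between the WT libraries, and so rests on the library labelled WT replicate 1 too. In that fit the change of Cdkn1a after UNC0642 was -0.20 (standard error 0.28), the reverse of its 0.64 without the term. Of the 8 genes Ddit4 alone was called after UNC0642, lower, at -0.50 (0.20), where 825 of 20409 genes were called higher and 817 lower. Against WT, 6 of the 8 were called higher in Tau+UNC0642 mice, without Ddit4 and Pdk4, where 4.83% of all genes were called higher.

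Without the library labelled WT replicate 1, all 8 response genes were called higher in Tau against WT and 6 in Tau+UNC0642 against WT, where 4.38% and 4.27% of all genes were. Tau replicate 2 had the highest oligodendrocyte and striatal neuron markers. Its 12 oligodendrocyte markers summed to 5943 CPM, against 2199 CPM in Tau replicate 1, 1580 to 3175 CPM in WT and 2305 to 2455 CPM in Tau+UNC0642 libraries. Its 9 striatal neuron markers summed to 397 CPM, against 215 CPM in Tau replicate 1, 177 to 191 CPM in WT and 188 to 194 CPM in Tau+UNC0642 libraries. None of these markers was at 0 in any library, and 5 of 12 and 9 of 9 were called higher in Tau against WT, or 11 and 6 without the library labelled WT replicate 1. Sgk1, Plin4 and Pdk4 were 1.76-fold, 1.84-fold and 1.52-fold higher in this library than in Tau replicate 1, the other members 0.826-fold to 1.19-fold. Without this library the median of the response genes was 0.64 in Tau against WT and -0.048 in Tau+UNC0642 against Tau.

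Other marker lists had fewer members called higher. Beside these counts and those of the oligodendrocyte and striatal markers, 3.72% of all genes were called higher and 6.10% lower in Tau against WT. The 10 neuron markers, of which none was called in Tau against WT, summed to 7452 to 7510 CPM in WT, 7667 to 8064 CPM in Tau and 8125 to 8182 CPM in Tau+UNC0642 libraries. Of 11 endothelial markers, 5 were called lower and 1 higher in Tau against WT, and their sum was 276 to 281 CPM in WT, 230 to 238 CPM in Tau and 218 to 282 CPM in Tau+UNC0642 libraries. Of 11 meningeal fibroblast markers 3 were called lower. Their sums were 72.2 to 105 CPM in WT libraries, 72.2 CPM in Tau replicate 1 and 51.1 CPM, the lowest, in Tau replicate 2. Of 9 mural cell markers 3 were called lower and 1 higher, and of 5 blood genes 2 lower. Of 10 microglia markers 2 were called higher, and of 10 astrocyte markers 1. Of 4 choroid plexus genes tested 1 was called higher, Prlr, at 2.34 (standard error 0.58), with 4 to 40 counts in a library. Ttr, not tested, had 6 and 24 counts in the Tau libraries and no counts in the others. Plin1, Adipoq and Lep, which define fat cells, had 0 to 4 counts in every library. The part of these shifts in the values of the response genes was not tested.

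Levels of different genes can be compared roughly per exon length. The length took in all annotated exons of a gene, whether or not its transcripts here used them, so the order is approximate. In WT mice Tsc22d3 (14.7 RPKM), Zbtb16 (13.8), Sgk1 (13.4) and Ddit4 (13.3) were the most abundant response genes, with overlapping libraries between neighbours in that order, and Plin4 (0.608 RPKM) was the least. In Tau mice Sgk1 (33.1 RPKM) and Tsc22d3 (29.99) led, and they overlapped in range with each other. Pdk4 (4.71 RPKM), Fkbp5 (3.99), Plin4 (2.97) and Cdkn1a (2.58) stayed low. In Tau+UNC0642 mice the order was Tsc22d3 (29.1 RPKM), Sgk1 (26.2), Zbtb16 (17.3), Ddit4 (16.5), Cdkn1a (4.06), Fkbp5 (3.77), Pdk4 (3.63) and Plin4 (1.83). Nr3c1, at 31.9 RPKM there, was close to the first 2.

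Other genes known to respond to glucocorticoids moved in the same direction. Of 35 such genes, listed with earlier results of these data known, 34 were tested (not Lcn2). In Tau against WT 17 were called higher and 1 lower, where 3.72% of all genes were called higher and 6.10% lower. Of the 34, 29 were above 0, and the median log2 fold change was 0.41. Against WT, 13 were called higher and 1 lower in Tau+UNC0642 mice, where 3.77% and 5.69% of all genes were, with a median of 0.25. Without the library labelled WT replicate 1 these counts were 16 higher and none lower in Tau, and 15 higher and none lower in Tau+UNC0642 mice, of 35 tested. Against Tau, 1 was called higher and 5 lower after UNC0642, where 3.73% and 3.95% of all genes were, with a median of -0.06. Without Tau replicate 2, 2 were called lower in that comparison, and 3 without Tau+UNC0642 replicate 2. Angptl4, which encodes an inhibitor of lipoprotein lipase, was the one called lower in both comparisons with WT, at -0.74 (standard error 0.32) and -0.78 (0.33). Both of its calls were lost without the library labelled WT replicate 1, with a replicate block and with the DESeq2 Wald test. The call in Tau was also lost without either Tau library and with a term for the Xist pattern, and the call in Tau+UNC0642 mice without Tau+UNC0642 replicate 2. It had 29 to 76 counts in a library.

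Klf9, a zinc finger factor of glucocorticoid feedback, was at 169 and 168 CPM in WT, 232 and 238 CPM in Tau and 246 and 242 CPM in Tau+UNC0642 mice. It was higher by a log2 fold change of 0.48 (standard error 0.07) in Tau and 0.53 (0.07) in Tau+UNC0642 relative to WT mice. Its transgenic libraries were clear of WT, as were those of the next genes. Nfkbia, the inhibitor of NF-kappaB, went from 18.5 and 17.5 CPM in WT to 27.5 and 28.9 CPM in Tau and 27.1 and 24.8 CPM in Tau+UNC0642 mice. Errfi1, a feedback inhibitor of the EGF receptor, had log2 fold changes of 0.67 (0.12) and 0.62 (0.12). Bcl6, a transcriptional repressor, had 0.59 (0.11) and 0.56 (0.11), and Nedd9, a focal adhesion scaffold, 0.61 (0.11) and 0.58 (0.11).

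A second set of these genes was called higher in Tau and lower after UNC0642: Per1, Mt1, Mt2, Il6ra and Tgfbr1. That is 5 of the 34 tested, where 0.857% of all genes, 175 of 20409, had this pattern. The list was drawn up with earlier results of these data known, so this share is a description. Per1, a clock gene with a well known glucocorticoid element, was at 39.3 and 41.1 CPM in WT, 77.8 and 56.9 CPM in Tau and 47.2 and 50.1 CPM in Tau+UNC0642 mice. The Tau libraries lay above all others, and the treated ones between the 2 groups. Its log2 fold change was 0.75 (standard error 0.13) in Tau against WT and then -0.47 (0.13) in Tau+UNC0642 against Tau. Mt2, a metallothionein, was at 4.10 and 4.41, 7.90 and 8.93, and 5.33 and 4.81 CPM in the 3 groups, and Mt1 changed by 0.57 (0.11) and -0.32 (0.11). With each library left out in turn, Mt2 alone of the 5 was called lower after UNC0642 every time. Per1 and Il6ra lost that call without Tau replicate 1, Mt1, Il6ra and Tgfbr1 without Tau replicate 2, Il6ra without Tau+UNC0642 replicate 1, and Mt1 and Tgfbr1 without Tau+UNC0642 replicate 2. Il6ra also lost it with the DESeq2 Wald test, and in the fit with a term for the Xist pattern Mt1 alone kept it. The study lists all 5 as reversed genes from these samples, and the 2 comparisons share the Tau libraries. Dio2, which activates thyroid hormone, had 0.22 (0.08) in Tau against WT, not called. It was called higher in the treated mice, at 0.44 (0.08) against Tau and 0.66 (0.08) against WT.

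**Figure D3:**
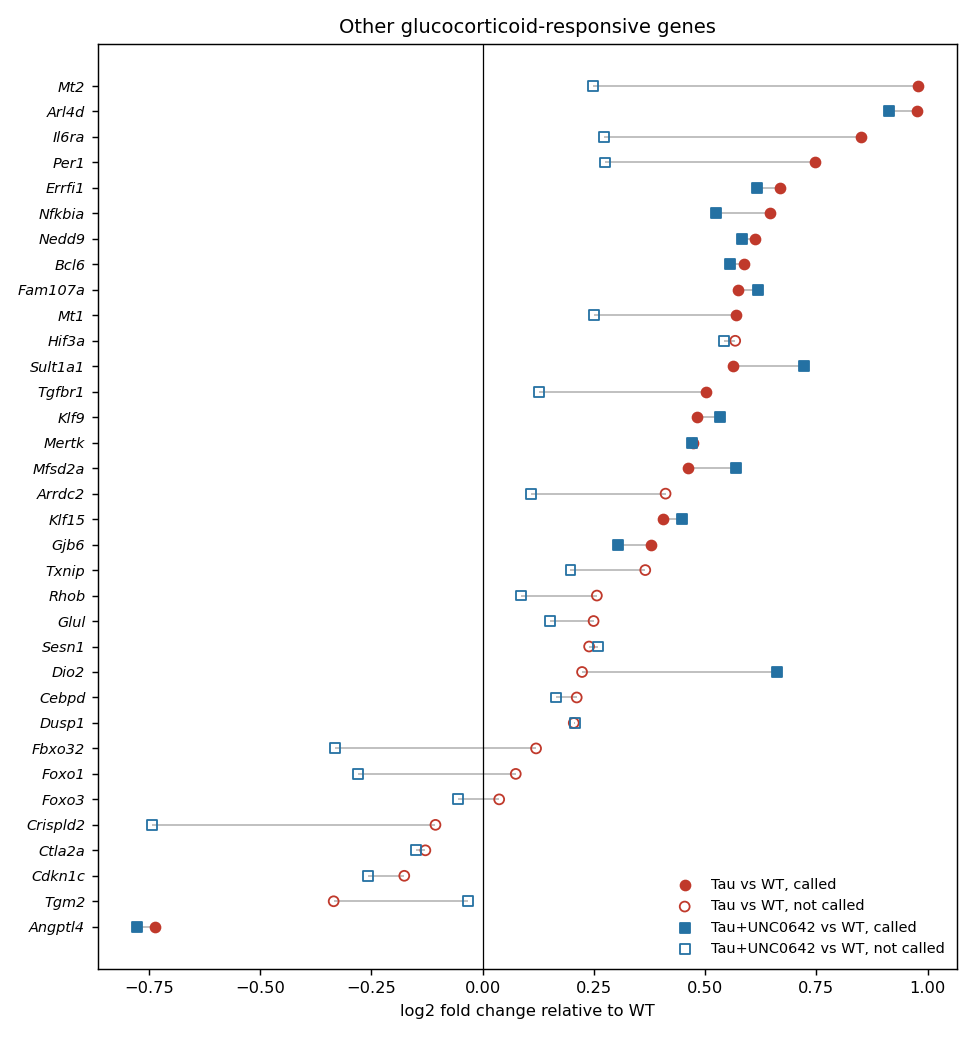
Log2 fold changes relative to WT of the 34 other glucocorticoid-responsive genes tested, in Tau (circles) and Tau+UNC0642 (squares) mice, filled where the gene was called. Of the 34, 29 lie above 0 in Tau and 26 in Tau+UNC0642 mice, and Mt2, Il6ra, Per1 and Mt1 have long lines between a filled circle and an open square.

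Genes that make, activate or carry the hormone were mostly not called, with medians below 0 against WT. Of 12 listed, 9 were tested, and in Tau against WT 2 were called lower and none higher, with 3 of 9 above 0 and a median log2 fold change of -0.31. In Tau+UNC0642 against WT 2 were called lower, none of the 9 was above 0 and the median was -0.32. For this list and those below, 3.72% of all genes were called higher and 6.10% lower in Tau against WT. The shares were 3.73% and 3.95% in Tau+UNC0642 against Tau and 3.77% and 5.69% in Tau+UNC0642 against WT. The 2 called in Tau were H6pd, which supplies the cofactor of the activating enzyme, at -0.32 (standard error 0.14), and Abcb1a, an efflux pump of the blood-brain barrier, at -0.31 (0.13). With each library left out in turn H6pd was called in Tau against WT 1 time, without WT replicate 1, and Abcb1a 3 times, and without WT replicate 2 neither was. Hsd11b1, the enzyme that regenerates corticosterone, was at 6.86 and 6.80 CPM in WT, 5.72 and 7.21 CPM in Tau and 6.16 and 5.12 CPM in Tau+UNC0642 mice, and its groups in Tau against WT overlapped. Of 7 tested genes of the CRH system and other stress peptides, Crhbp alone was called, at 0.33 (0.11) in Tau against WT, and not without the library labelled WT replicate 1 or without Tau replicate 2.

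Chaperones of the receptor complex lay slightly above 0, most of them not called. All 14 were above 0 in Tau against WT, with a median of 0.20, and 2 were called, Hsp90aa1 at 0.26 (standard error 0.09) and Dnajb1 at 0.32 (0.09). The call of Hsp90aa1 was lost without WT replicate 2, Tau replicate 2 or Tau+UNC0642 replicate 2. Dnajb1, an HSP40 co-chaperone, was at 49.2 and 50.3 CPM in WT, 63.6 and 60.3 CPM in Tau and 89.9 and 83.5 CPM in Tau+UNC0642 mice. It was thus a step higher in each group, by 0.48 (0.09) in Tau+UNC0642 against Tau and 0.80 (0.09) against WT. Fkbp4, the relative of Fkbp5 that favours receptor transport, was at 98.4 and 92.2 CPM in WT, 106 and 111 CPM in Tau and 110 and 113 CPM in Tau+UNC0642 mice, with 0.18 (0.08), and was not called.

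Coregulators of the receptor were mostly not called. Of 20 tested, none was called in Tau against WT. The targets of the inhibitor were within this list. Ehmt1 was at 43.6 to 49.0 CPM in the 6 libraries and Ehmt2 at 131 to 161 CPM, both with overlapping groups, and their log2 fold changes in Tau against WT were -0.03 (interval -0.24 to 0.19) and -0.10 (-0.32 to 0.12).

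Several response genes also answer to other regulators, and lists for these were examined beside them. Of 15 p53 targets tested, 4 were called higher and 2 lower in Tau against WT and, after UNC0642 in Tau mice, 1 higher and none lower. Pmaip1, a pro-apoptotic BH3 gene, was at 1.26 and 1.25 CPM in WT and 2.82 to 3.50 CPM in the transgenic libraries, whereas Btg2, an antiproliferative gene, was at 50.5 and 34.1 CPM in WT and 19.6 to 29.01 CPM in them. Of 12 Atf4 targets, genes of the integrated stress response that also induces Ddit4, none was called in Tau against WT. Of 16 fasting and PPAR targets, the programme in which Pdk4 is also known, 3 were called lower and none higher. Without the library labelled WT replicate 1 the counts in Tau against WT were 1 higher and 1 lower for the p53 targets, with Pmaip1 and Btg2 still called, 1 and 1 for the Atf4 targets, and 1 higher and none lower for the fasting and PPAR targets. Without Tau replicate 2 the p53 targets had 2 higher and 1 lower.

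The closest relatives of the response genes were mostly not called, with 2 of 18 higher in Tau against WT. These were Tsc22d4, at 0.29 (standard error 0.11), and the lipid droplet gene Plin3, at 0.49 (0.21), both not called without WT replicate 2 or Tau replicate 2, and Plin3 not without WT replicate 1. After UNC0642 both were called lower, at -0.41 (0.11) and -0.68 (0.21), as was Pdk2, at -0.39 (0.12). Plin3 lost this call without Tau replicate 2 or Tau+UNC0642 replicate 1, and Tsc22d4 and Pdk2 without Tau+UNC0642 replicate 2. The rest, among them Sgk3, Fkbp4, Cdkn1b and Pdk1, were called in neither comparison.

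Clock genes and immediate early genes, known to be coupled to the daily hormone peak and to neuronal activity, moved between the groups too. Of 15 genes of the clock loop, 5 were called higher and none lower in Tau against WT, where 3.72% and 6.10% of all genes were. After UNC0642 1 was called higher and 6 lower, where 3.73% and 3.95% of all genes were. Per2 was at 20.4 and 31.8 CPM in WT, 56.5 and 61.5 CPM in Tau and 40.3 and 38.8 CPM in Tau+UNC0642 mice. Its log2 fold change was 1.18 (standard error 0.17) and then -0.58 (0.17). Dbp, a clock output factor, was at 35.0 and 39.7, 45.9 and 40.6, and 17.5 and 22.9 CPM in the 3 groups. The median of the list was 0.21 in Tau against WT and -0.17 after UNC0642. The hour at which tissue was taken was not given in the sources used here.

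Of 12 immediate early genes, 5 were called higher and 1 lower in Tau against WT, where 3.72% and 6.10% of all genes were. After UNC0642 6 were called higher and none lower, where 3.73% and 3.95% of all genes were. In treated mice against WT 9 were called higher, where 3.77% of all genes were. Arc, a synaptic activity gene, was at 231 and 175 CPM in WT, 333 and 370 CPM in Tau and 536 and 553 CPM in Tau+UNC0642 mice. Each group lay above the one before. Fosb was at 14.3 and 8.51 CPM in WT, 12.2 and 10.99 CPM in Tau and 18.7 and 19.5 CPM in Tau+UNC0642 mice. Without the library labelled WT replicate 1, 8 immediate early genes were called higher and none lower in Tau against WT, and without WT replicate 2, 4 higher and 3 lower. The clock genes had 4 to 5 higher and none lower there with any library left out. The part of clock and activity genes in the values of the response genes was not tested.

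**Figure D4:**
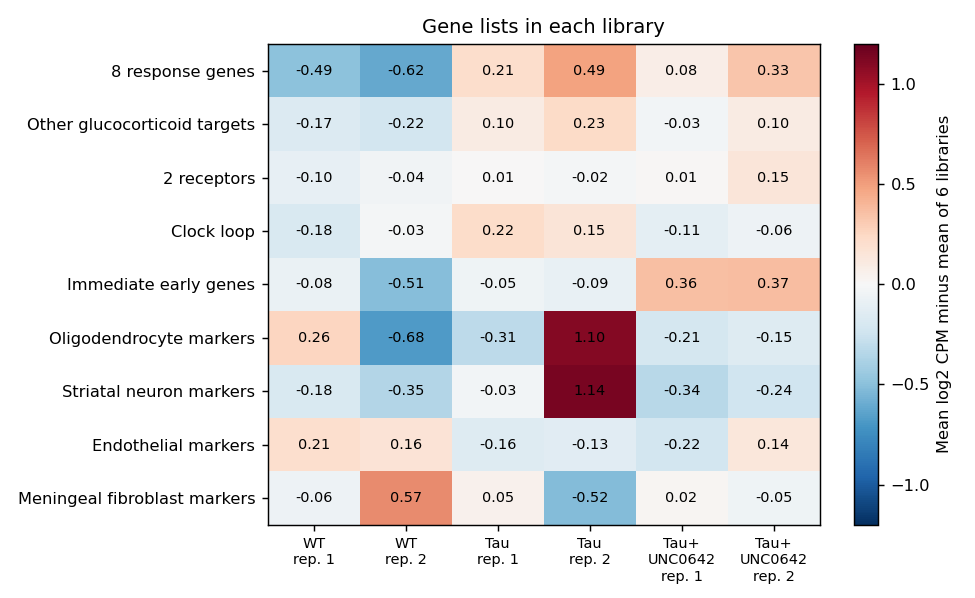
Mean log2 CPM of each gene list in each library, minus its mean over the 6 libraries (colour and printed value). The 8 response genes are at -0.49 and -0.62 in WT and between 0.08 and 0.49 in the transgenic libraries, while Tau replicate 2 has the highest values of oligodendrocyte and striatal markers, at 1.10 and 1.14, and WT replicate 2 the lowest of oligodendrocyte markers, at -0.68.

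The genes whose profile over the 6 libraries was most like the mean of the 8 response genes were sought among 16368 genes with a mean of at least 1 CPM, by the root mean square difference of centred log2 CPM. The nearest was Errfi1, at 0.103, itself on the list of glucocorticoid-responsive genes, followed by Gm5864 (0.109), Emp1 (0.110), Gm6166 (0.117) and Gm13136 (0.118). For single members, Fkbp5 was nearest to Camk1g, at 0.0446, a calcium/calmodulin kinase gene at 36.7 and 40.5 CPM in WT, 61.7 and 59.7 CPM in Tau and 52.2 and 62.4 CPM in Tau+UNC0642 mice. Zbtb16 was nearest to Slc2a1 (0.0510), the glucose transporter of the blood-brain barrier, Pdk4 to the adiponectin receptor gene Adipor2 (0.0815), and Ddit4 to Mrm2 (0.0664).

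Tsc22d3 and Sgk1 shared a nearest gene, Gm6166, at 0.0789 and 0.166. Cdkn1a was nearest to the immediate early gene Fosb, at 0.155. Plin4 was nearest to Smim3 but far from it, at 0.320. The receptors were closest to Stmn1 (Nr3c1, 0.0208) and Gm5555 (Nr3c2, 0.0297). With 6 libraries these distances are a description.

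Counting bears on a few of the genes. Plin4 had 84 and 95 counts in the WT libraries and 130 to 388 in the others, and every other member had at least 132 in each library. In GENCODE M21, Plin4 overlaps Hdgfl2 on the opposite strand, and Fkbp5, Cdkn1a and Nr3c2 overlap short or uncertain noncoding genes. The libraries were strand-specific, but the strand setting of the counting was not given in the sources used here, so reads from these overlaps may not be told apart. The counts are per gene and do not separate the several starts of Sgk1 and Tsc22d3.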

How the data were processed

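RNA of the PFC was sequenced in 6 libraries, 2 mice in each of 3 groups. Per the labels and the study's methods, strand-specific libraries depleted of ribosomal RNA were sequenced, reads were trimmed with Cutadapt and aligned with TopHat2 to RefSeq mRNAs, and the authors counted reads per gene with featureCounts and deposited these counts without normalization. The submitters' processing notes name mm10, and versions were not given in the sources used here. In 2 files 26 symbols read as dates, and their rows were joined by position. Coordinates come from GENCODE M21 (53669 names with 1 gene) and promoter sequences from RefSeq (GRCm38.p6).

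Counts were analysed with edgeR 4.0.16, limma 3.58.1 and DESeq2 1.42.0 in R 4.3.3, with tables and figures from Python 3.11.15, numpy 2.4.6, pandas 2.3.3 and matplotlib 3.10.9. filterByExpr (minimum count 10, minimum total 15) kept 20409 genes, and TMM factors were 0.966 to 1.04. All 6 libraries entered one quasi-likelihood fit of group means, with 3 residual degrees of freedom and a biological coefficient of variation of 12.3%. Calls needed 1.2-fold and p under 0.05. Log2 CPM used a prior count of 2, and an Xist level over 10 CPM marked the female pattern. The fit was tested on simulated data. Intervals are for the difference between group means, with a variance estimate that borrows from all genes, and do not span the values of single mice.

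The members and gene lists were chosen with earlier results of these data known. Named were all members, the receptor genes' partners Ehmt1, Ehmt2, Fkbp4, Per1 and Hsd11b1, up to 4 called genes of smallest p per list and comparison, and the genes of nearest profile. Other genes given values or names were chosen after their values were seen. Alternatives were scaling by library size or DESeq2 size factors, a filter of 10 counts in each library or none, the DESeq2 Wald test, limma-voom, other thresholds, a replicate block, a term for the Xist pattern, and each library left out. Replicate numbers come from the labels and do not mark shared mice.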

Additional observations from a re-analysis of the deposited data

How the results depend on the processing

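Over 330 alternative values of the members (11 for each member and comparison), 28 moved by more than the spread between replicates or reversed. The 8 response genes stayed above 0 in 87 of 88 alternative values in Tau against WT (Cdkn1a was at -0.0034 without WT replicate 2) and in 88 of 88 in Tau+UNC0642 against WT. Cdkn1a reversed after UNC0642 in Tau mice, from 0.64 to -0.20, with a term for the Xist pattern. The 2 Tau+UNC0642 and the 2 Tau libraries differ in that pattern, and the WT libraries alone set the term. With each library left out the median of the 8 was 0.64 to 0.83 in Tau against WT, 0.65 to 0.82 in Tau+UNC0642 against WT and -0.29 to -0.048 in Tau+UNC0642 against Tau. The calls after UNC0642 were the least stable: Plin4 was not called with limma-voom, by library size, with at least 10 counts in every library, with the Xist term, or without WT replicate 1 or 2, Tau replicate 2 or Tau+UNC0642 replicate 1. Pdk4 and Sgk1 were called lower without Tau replicate 1 and with no filter, and Zbtb16 without Tau+UNC0642 replicate 2. Cdkn1a was not called with the Xist term or without Tau replicate 2 or either Tau+UNC0642 library. Without Tau+UNC0642 replicate 2 the median of the 8 against WT was at its lowest, 0.65.

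Of all genes, 759 were called higher and 1244 lower in Tau against WT. By library size these were 415 and 1742, with 7 of 8 response genes still called. Without a filter 1890 were lower in Tau against WT and 1173 higher in Tau+UNC0642 against Tau. With the DESeq2 Wald test 744 were lower in Tau against WT, 494 higher in Tau+UNC0642 against Tau and 740 lower in Tau+UNC0642 against WT. At an adjusted p under 0.05 there were 25 higher and 7 lower, 2 and 2, and 38 and 6 in the 3 comparisons, and at a fold of 1.5 there were 212 higher in Tau against WT, 312 lower in Tau+UNC0642 against Tau, and 204 higher and 580 lower in Tau+UNC0642 against WT. The cause was not tested. Same-numbered libraries did not deviate together (correlations of -0.034, -0.021 and -0.0033 over 20409 genes). With a replicate block 692 genes were called higher and 1100 lower in Tau against WT, and 7 response genes were still called there. In Tau+UNC0642 against WT 6 were called higher, where 3.60% of all genes were. The median of the 8 with the block was 0.69, -0.18 and 0.77 in Tau against WT, Tau+UNC0642 against Tau and Tau+UNC0642 against WT.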
